A study of Mus musculus with 16 samples.

Results

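The comparison described here is that of liver-directed gene delivery with saline in the cortex of mice without progranulin. It takes 10 of the 16 libraries of the series, 5 labelled KO AAV and 5 labelled KO saline, and leaves the wild-type libraries out. All 10 animals were C57BL/6 mice carrying the label Grn KO, about 12 months old (12 to 12.7 months), and each gave 1 library of cortex RNA. KO AAV mice (3 males and 2 females) had received AAV-8D3:PGRN, 300000000000 vector genomes into a tail vein, and KO saline mice (4 males and 1 female) had received saline, with 8 months recorded as the length of treatment for both. The virus targets the liver and encodes human progranulin joined to 8D3, an antibody fragment that binds the mouse transferrin receptor. The comparison asks how transcripts of the brain differ in knockout mice given this vector. Saline was the control, so that the vector and its cargo cannot be told apart. No source used here gives the promoter in the vector or the kind of knockout allele.

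Progranulin is a secreted glycoprotein that reaches lysosomes through the receptor sortilin or together with prosaposin, and is cut there into granulins. Loss of a single copy of its gene causes frontotemporal dementia in people, and mice without it develop lysosomal storage material, activated microglia and reactive astrocytes with age. The transferrin receptor carries iron-loaded transferrin, and antibodies bound to it, across the endothelium of brain vessels.

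Of 53801 gene identifiers in the count table, 9905 had at least 10 counts in at least 5 of the 10 libraries and were tested, and they hold 98.6% of the counts. Total counts ran from 1351974 to 1720657 in KO saline and from 1614251 to 1867168 in KO AAV, and both depth (two-sided exact permutation p = 0.0238) and the number of genes detected (exact p = 0.0159) were higher in KO AAV. The share of counts from the mitochondrial genome was 23.3% to 29.8% in KO saline and 20.4% to 24.8% in KO AAV (exact p = 0.175). KO saline replicates 1 and 3 stood apart from the other 8 libraries on the first principal component, at -36.6 and -42.8 against -4.32 to 25.8. KO AAV replicate 3 had the highest summed level of 14 striatal neuron markers, 2486 CPM (counts scaled to library total and TMM factor) against 943 to 1703 CPM in the other 9 libraries. List medians, and named genes with an unadjusted p under 0.05, that moved by over 1.5 times without KO saline replicates 1 and 3 are given with and without these libraries. In each of the 10 libraries Xist and Ddx3y fitted the sex on record.

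**Figure D1:**
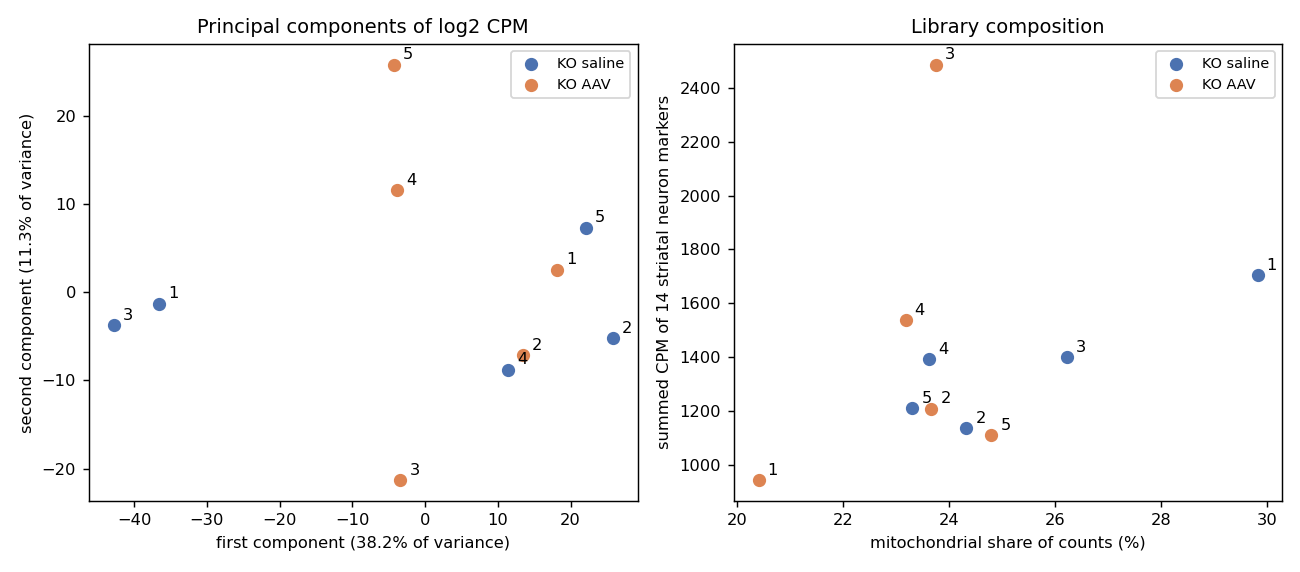
Left, scores of the 10 libraries on the first and second principal components of log2 CPM, numbered by replicate and coloured by group. Right, mitochondrial share of counts (percent, x axis) against the summed CPM of 14 striatal neuron markers (y axis). KO saline replicates 1 and 3 lie at the left of the first component, and KO AAV replicate 3 lies at the top of the right panel at 2486 CPM.

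Grn, the knocked-out gene (ENSMUSG00000034708, chr11:102430315-102437048, plus strand, GRCm38), had 0 counts in each of the 10 libraries. These counts are of the mouse gene in cortex, so they match the label Grn KO in both groups and do not measure the human transgene. No wild-type level is given here, so the counts alone cannot tell an absent transcript from one that the counting missed. Cortical cell types were present in every library. Summed over its markers, the astrocyte identity list reached 14172 CPM or more in each library, the oligodendrocyte and myelin list 4653 CPM or more, the homeostatic microglia list 625 CPM or more and the excitatory layer list 2722 CPM or more.

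Gfap, the intermediate filament of astrocytes (ENSMUSG00000020932, chr11:102887336-102900912, minus strand), was the gene that fell with treatment among those past the count filter. Its level was 67.9, 48.7, 75.3, 90.9 and 66.6 CPM in KO saline replicates 1 to 5, against 28.3, 34.9, 25.7, 31.1 and 30.7 CPM in KO AAV replicates 1 to 5. All 5 treated libraries lay below all 5 saline libraries, and the highest treated value was well under the lowest saline value. The means were 69.9 ± 15.3 CPM after saline and 30.2 ± 3.42 CPM after AAV (SD, n = 5 each), a 2.32-fold lower level with a log2 difference of -1.22 (SE 0.17), 95% interval -1.57 to -0.87 and an adjusted p of 0.0121 in edgeR's quasi-likelihood test with Benjamini-Hochberg adjustment. It was 1 of 9905 genes tested (0.0101%) to pass an adjusted p of 0.05, and no gene passed in the other direction. The lowest adjusted p of any other gene was 1.00 in edgeR. An unadjusted edgeR p under 0.05 was found for 252 genes (2.54%), fewer than the 5% that such a threshold gives where no gene differs. DESeq2 called Gfap and Ctss and no higher gene. The size of the Gfap difference stayed between -1.31 and -1.09 over 27 other settings, whereas the call did not. KO saline replicate 4 had the highest Gfap level. Its RNA integrity number, a quality score, was also the lowest, at 8. That number was 9.2 to 9.6 in the rest of KO saline and 9.3 to 9.6 in KO AAV. Without KO saline replicate 4 the log2 difference of Gfap was -1.09 and the adjusted p in edgeR was 0.0607. Leaving out KO AAV replicate 1, 3, 4 or 5 gave edgeR adjusted p of 0.0835, 0.0814, 0.0672 and 0.0664 in turn. With the males alone the difference was -1.26 and the edgeR adjusted p 0.934. Without KO saline replicates 1 and 3 it was -1.20 with an edgeR adjusted p of 0.00995, and with all libraries thinned to the smallest total it was -1.27 with an edgeR adjusted p of 0.00810. In these bulk libraries, fewer cells of a type and less RNA per cell cannot be told apart, for Gfap and for every cell type marker below.

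**Figure D2:**
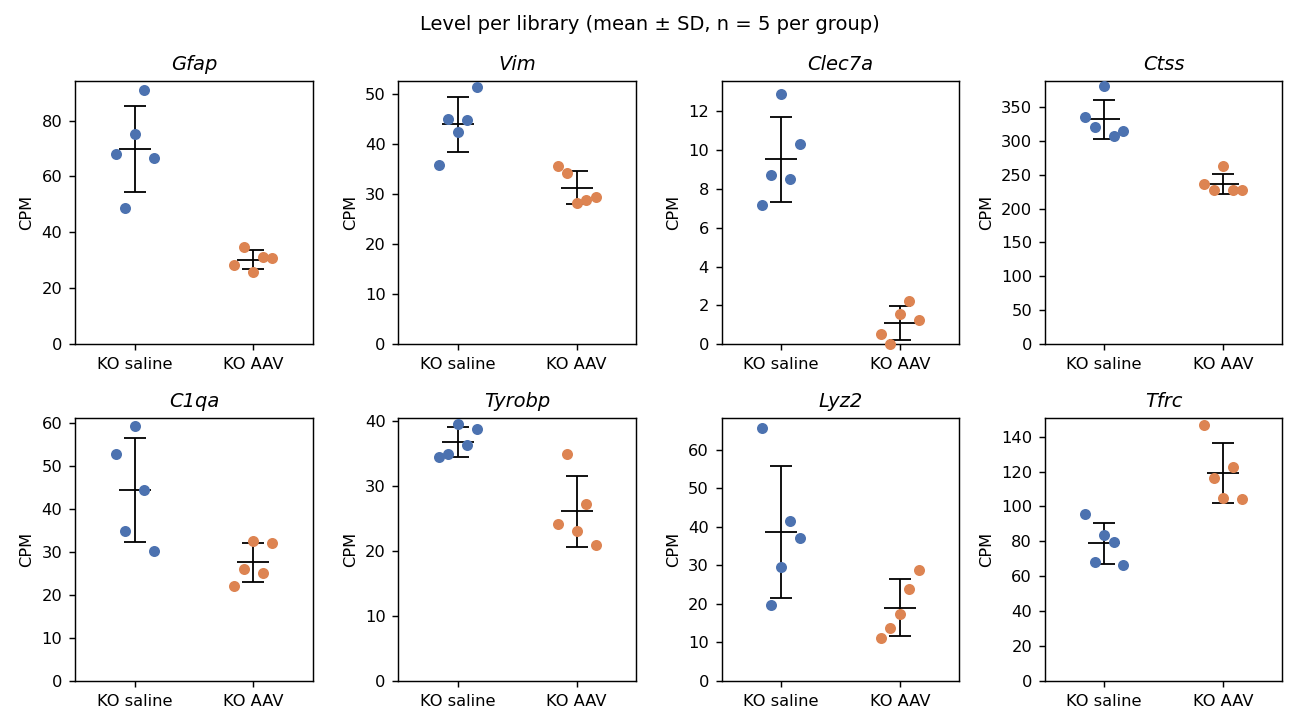
Level per library in CPM (y axis, from 0) of 8 genes in KO saline and KO AAV. Points are libraries in replicate order, with the mean and SD (n = 5 per group). Gfap, Vim, Clec7a and Ctss show no overlap between the groups with KO AAV below, Tfrc shows none with KO AAV above, and C1qa, Tyrobp and Lyz2 overlap.

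**Figure D3:**
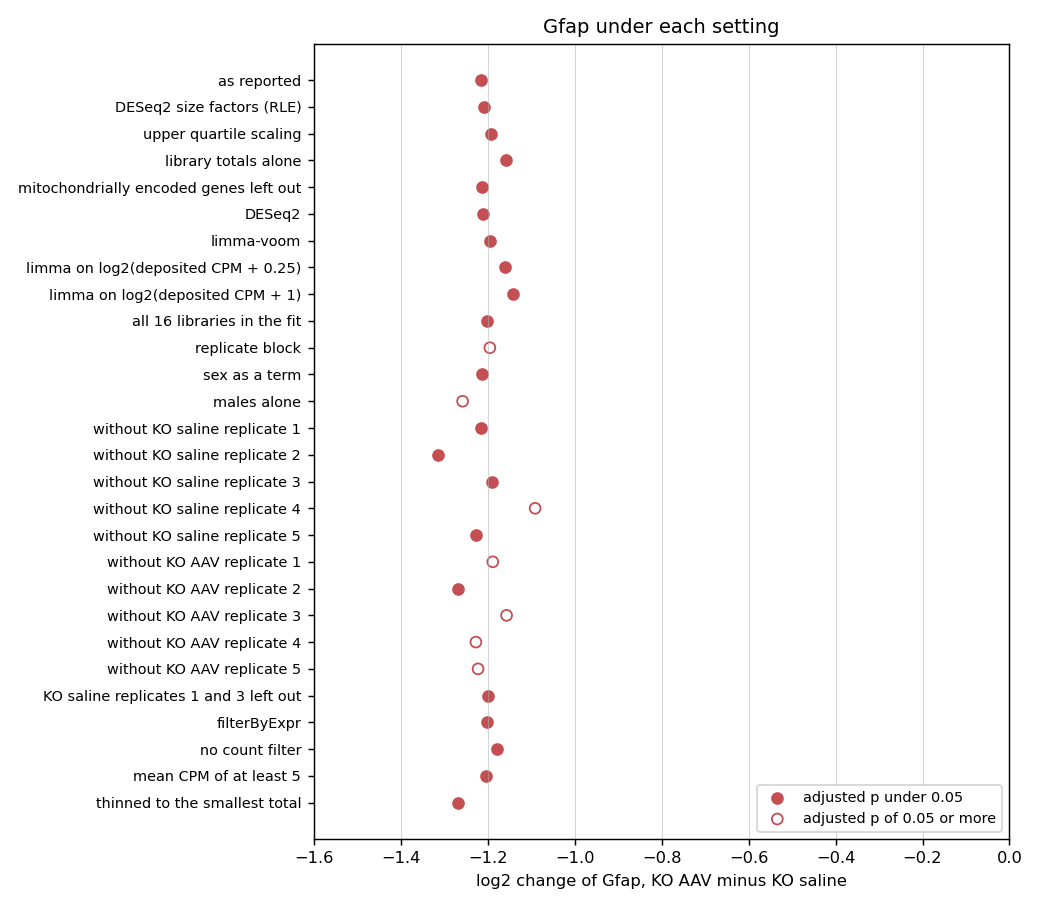
Log2 difference of Gfap, KO AAV minus KO saline (x axis), as reported and under 27 other settings (y axis). Filled points have an adjusted p under 0.05 and open points do not. Every value lies between -1.31 and -1.09, and 7 points are open.

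Clec7a (ENSMUSG00000079293, chr6:129461591-129472779, minus strand), the receptor dectin-1 that marks activated microglia, lay just outside the count filter, with 10 or more counts in 4 of the 10 libraries. Its counts were 9, 12, 17, 15 and 17 in KO saline replicates 1 to 5 and 1, 0, 3, 4 and 2 in KO AAV replicates 1 to 5. Every treated library held fewer counts than every saline library, although the treated libraries were the deeper ones on average. The means were 9.53 ± 2.19 CPM and 1.11 ± 0.873 CPM (SD, n = 5 each), a log2 ratio of means of -3.10. The unadjusted exact permutation test gave a two-sided p of 0.00794, which is the lowest possible with 5 against 5. With edgeR's filterByExpr in place of the filter, Clec7a entered the fit and passed, with a log2 difference of -3.01 and an adjusted p of 0.00921. Since the treated libraries together held 10 counts, the fold of 8.58 is rough.

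Ctss, which encodes the lysosomal protease cathepsin S of microglia (ENSMUSG00000038642, chr3:95526786-95556403, plus strand), had 336, 319.6, 380.1, 307 and 315 CPM in KO saline replicates 1 to 5, against 236, 227, 263, 228 and 227 CPM in KO AAV replicates 1 to 5. The groups did not overlap, and KO AAV replicate 3 was the highest of the treated libraries. The log2 difference was -0.49 (SE 0.10) with a 95% interval of -0.71 to -0.27. It had the second lowest p in the fit, 2.05e-04 unadjusted, and did not pass in edgeR (adjusted p = 1.00), while DESeq2 gave an adjusted p of 0.00836. Without KO saline replicates 1 and 3 the difference was -0.41 and the edgeR adjusted p 0.309.

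The starts of Gfap, Clec7a and Ctss are shown because these are the 3 genes that passed in at least 1 tool or filter with every treated library below every saline library, in the reported scaling. Each run is 300 bases from RefSeq on GRCm38.p6, read 5′ to 3′ on the gene's strand, from 250 bases before a transcript start to 50 bases after it. The regions are chr11:102897151-102897450 (minus strand) for Gfap, chr6:129472730-129473029 (minus strand) for Clec7a and chr3:95526536-95526835 (plus strand) for Ctss. The Gfap start in RefSeq lies inside the longer gene span of the annotation given above, and for Clec7a the first of 2 listed starts is shown. Capitals mark matches, on either strand, to TTCNNNGAA (bound by STAT factors) and GAGGAA (a core bound by PU.1, the myeloid factor).
Gfap: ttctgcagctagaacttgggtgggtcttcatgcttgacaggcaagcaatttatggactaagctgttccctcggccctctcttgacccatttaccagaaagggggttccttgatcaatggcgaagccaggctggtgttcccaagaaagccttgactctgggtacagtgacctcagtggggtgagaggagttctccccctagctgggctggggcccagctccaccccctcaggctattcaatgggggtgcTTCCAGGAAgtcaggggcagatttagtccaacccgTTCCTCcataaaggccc
Clec7a: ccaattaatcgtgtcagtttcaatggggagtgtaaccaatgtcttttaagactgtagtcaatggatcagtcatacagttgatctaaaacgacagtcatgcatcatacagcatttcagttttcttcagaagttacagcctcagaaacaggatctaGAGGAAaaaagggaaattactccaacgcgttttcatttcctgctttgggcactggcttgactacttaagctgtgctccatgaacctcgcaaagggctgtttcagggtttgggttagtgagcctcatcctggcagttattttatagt
Ctss: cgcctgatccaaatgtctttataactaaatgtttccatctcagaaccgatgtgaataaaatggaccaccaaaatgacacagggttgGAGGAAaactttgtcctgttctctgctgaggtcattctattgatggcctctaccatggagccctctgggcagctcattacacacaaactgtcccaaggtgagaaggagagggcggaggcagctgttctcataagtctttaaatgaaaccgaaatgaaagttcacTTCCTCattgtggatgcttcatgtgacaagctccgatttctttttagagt
TTCNNNGAA matched 1 time in the Gfap window and in neither of the other two, and 8.30% of all 32851 promoters of this length hold it. GAGGAA matched 1 time in Gfap, 1 time in Clec7a and 2 times in Ctss, and 28.3% of all promoters hold it. No match overlapped another. TGANTCA, bound by AP-1, and the E-box CACGTG had no match in the 3 windows, against 7.81% and 7.15% of all promoters. These are matches of letters and no measure of binding.

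Across the transcriptome the differences were small. The middle 50% of log2 differences lay between -0.13 and 0.11, with a median of -0.01, and the 1% and 99% quantiles were -0.53 and 0.50. Only 6 of the 9905 genes had a fitted difference of 2-fold or more, 4 lower and 2 higher. The 95% interval lay wholly inside a 2-fold change in either direction for 9286 genes (93.8%), and inside a 1.5-fold change for 5648 genes (57.0%). Precision followed abundance. The median SE was 0.28 in the 2477 genes of lowest level (6.06 to 14.7 CPM) and 0.13 in the 2476 of highest level (70.5 CPM and above). The interval lay inside a 2-fold change for 79.8% of the former and 99.6% of the latter.

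Of the 252 genes with an unadjusted p under 0.05 in edgeR, 170 (1.72% of all tested) were lower and 82 (0.828%) higher in KO AAV. That split rests on the scaling, since library totals alone gave 66 lower and 201 higher, and upper quartile scaling 91 and 139. Without KO saline replicates 1 and 3 there were 752 such genes, 450 lower and 302 higher, and Gfap alone passed adjustment in edgeR. Among the 2476 most abundant genes 53 were lower and 11 higher, but 14 lower and 40 higher with library totals alone and 18 and 25 with upper quartile scaling. Among the 2477 least abundant genes 41 were lower and 33 higher, against 25 and 58 with library totals alone. In 23 genes (0.232%) every treated library lay below every saline library, and in 21 (0.212%) every treated library lay above, 44 in all (0.444%). RP23-207N15.3, RP23-41J14.5 and Slc39a8 among the latter had passed the count filter through the KO AAV libraries alone. No gene had passed through the KO saline libraries alone, so the filter favours the higher direction. These counts use TMM-scaled CPM and were not made under the other scalings.

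**Figure D4:**
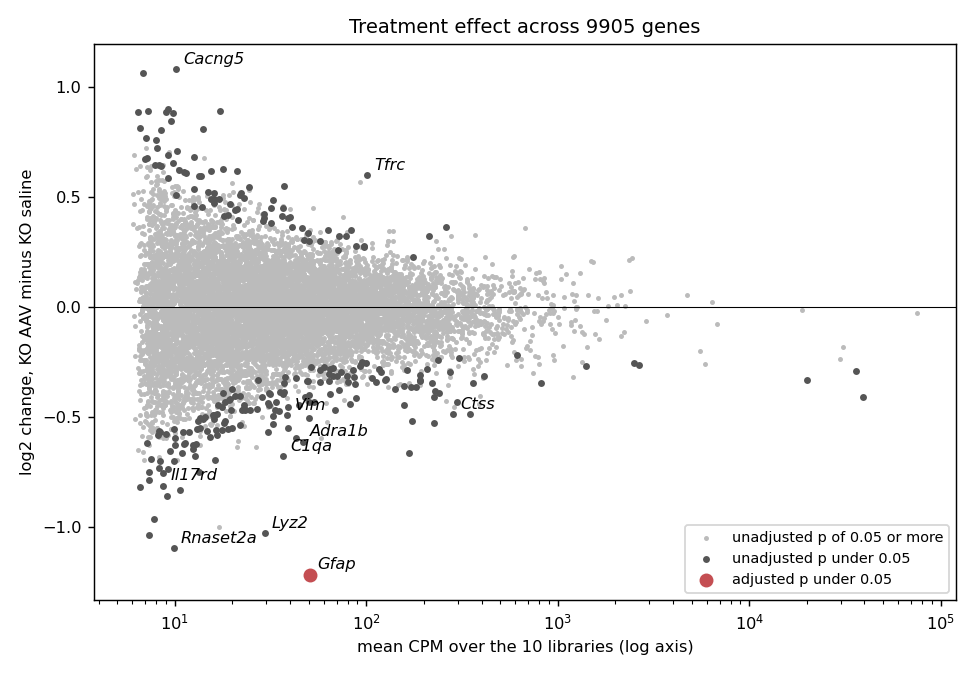
Log2 difference of 9905 genes, KO AAV minus KO saline (y axis), against mean CPM over the 10 libraries (x axis, log scale). The red point is Gfap, with an adjusted p under 0.05 in edgeR, and the dark points have an unadjusted p under 0.05. The cloud narrows as CPM rises, and the dark points at high CPM lie mostly below 0 under TMM scaling, while among the 2476 most abundant genes library totals alone put 14 below and 40 above 0.

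Among astrocyte genes, the drop in Gfap stood beside a smaller difference in its filament partner. Vim, which encodes vimentin (ENSMUSG00000026728, chr2:13573927-13582826, plus strand), had 36, 45, 42.6, 44.9 and 51.5 CPM in KO saline replicates 1 to 5, against 35.7, 34.4, 28.4, 28.9 and 29.5 CPM in KO AAV replicates 1 to 5. The groups did not overlap after TMM scaling, by a margin of 36.0 against 35.7 CPM, and overlapped with library totals alone. The log2 difference was -0.49 (SE 0.14), with an unadjusted edgeR p of 0.00340. The reactive astrocyte list has 28 members, of which 11 were tested: 1 fell, none rose, and 3 had an unadjusted p under 0.05 in the lower direction. Of all genes tested, 1.72% were lower at that threshold in edgeR. The median log2 difference of the list was -0.23 against -0.01 for all genes. Amigo2, a membrane adhesion protein, had a log2 difference of -0.58 (SE 0.28), while Cd44, the hyaluronan receptor, had 0.00 (SE 0.30) and Cp, the ferroxidase ceruloplasmin, -0.03 (SE 0.28). The other tested members were C4b, H2-D1, S100a10, Ggta1, Tm4sf1 and Srgn, and of these C4b had an unadjusted p under 0.05. The remaining members lay below the filter. Cd109 among them, a membrane protein, held 0 counts over the saline libraries and 7 over the treated ones (exact permutation p = 0.00794, unadjusted, n = 5 each). The 7 were 3, 1, 1, 1 and 1 in KO AAV replicates 1 to 5, the deeper group on average.

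The 18 markers of astrocyte identity were all tested, and none passed in edgeR. Their median was -0.08, or -0.02 without KO saline replicates 1 and 3. Of the 18, 13 had a negative difference, where 5188 of all 9905 genes tested had one. The number was 10 with library totals alone or upper quartile scaling, and 9 without that pair. Glul, the glutamine synthetase of astrocytes, had 2957, 2906, 2964, 2726 and 2969 CPM in KO saline replicates 1 to 5, against 2359.6, 2715, 2363, 2279.7 and 2397 CPM in KO AAV replicates 1 to 5. Its groups did not overlap after TMM scaling, but did with library totals alone, and the log2 difference was -0.26 (SE 0.10). Gjb6, the gap junction protein connexin 30, also showed no overlap, at 70.2 ± 7.72 CPM after saline and 55.6 ± 6.32 CPM after AAV (SD, n = 5 each) and -0.33 (SE 0.13). The water channel Aqp4 had -0.02 (SE 0.16) and the glutamate transporters Slc1a2 and Slc1a3 had -0.08 (SE 0.12) and 0.07 (SE 0.15). The summed level of the list was 14689 to 18288 CPM in KO saline and 14172 to 16121 CPM in KO AAV, so the groups overlapped.

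Complement genes, which tag synapses and debris for microglia, had the lowest median of the 26 lists with at least 5 tested members, -0.57, or -0.40 without KO saline replicates 1 and 3. All 5 tested members of 11 had a negative difference, where 5188 of all 9905 genes tested had one. In edgeR 4 of them had an unadjusted p under 0.05, where 1.72% of all genes tested were lower at that threshold. None passed adjustment in edgeR. C1qa, a chain of the initiating complex C1q (ENSMUSG00000036887, chr4:136895917-136898803, minus strand), had 52.7, 34.9, 59.3, 44.3 and 30.3 CPM in KO saline replicates 1 to 5, against 22, 26, 32.6, 25 and 32 CPM in KO AAV replicates 1 to 5. KO saline replicate 5 overlapped the treated libraries, and the log2 difference was -0.68 (SE 0.19), or -0.41 without KO saline replicates 1 and 3. C1qc and C1qb, which encode the other C1q chains, had -0.43 (SE 0.17) and -0.57 (SE 0.26), and C1qb had -0.07 without KO saline replicates 1 and 3. C4b, the component cleaved by activated C1, had 4.80, 13.1, 8.36, 6.81 and 9.09 CPM in KO saline replicates 1 to 5, against 2.62, 6.65, 6.83, 2.22 and 1.84 CPM in KO AAV replicates 1 to 5. The groups overlapped. Its log2 difference of -1.03 (SE 0.38) rests on a few counts per library, and reads of C4b and its close copy C4a may have been split in counting.

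The list of genes induced in disease-associated microglia, a state seen around plaques and in demyelination, had 27 members, of which 19 were tested. None passed in edgeR, and the median was -0.24, or -0.15 without KO saline replicates 1 and 3. In edgeR 6 had an unadjusted p under 0.05 in the lower direction and 0 in the higher. The shares over all genes tested were 1.72% lower and 0.828% higher, a split that rested on the scaling. Such a count was not made for this list under the other scalings. Tyrobp, the adaptor of the receptor TREM2 (ENSMUSG00000030579, chr7:30413760-30417585, plus strand), had 34.4, 34.9, 39.5, 36.3 and 38.8 CPM in KO saline replicates 1 to 5, against 24.1, 34.9, 23.1, 27.2 and 20.9 CPM in KO AAV replicates 1 to 5. Only KO AAV replicate 2 reached the saline range, and the log2 difference was -0.50 (SE 0.16). Lyz2, the lysozyme of myeloid cells (ENSMUSG00000069516, chr10:117277331-117282321, minus strand), had 65.5, 19.6, 29.6, 41.5 and 37 CPM in KO saline replicates 1 to 5, against 11, 13.9, 17.3, 23.9 and 28.9 CPM in KO AAV replicates 1 to 5. KO saline replicate 1 was the highest library and the groups overlapped, with a log2 difference of -1.03 (SE 0.29). Cd63, a tetraspanin of late endosomes, had -0.52 (SE 0.20), but -0.09 without KO saline replicates 1 and 3, which held the 2 highest levels of 312 and 258 CPM. Apoe, the lipid carrier, had -0.27 (SE 0.11), or -0.15 without those libraries. Ctsz, the protease cathepsin Z, had -0.52 (SE 0.22), and Cd68, a lysosomal glycoprotein of phagocytes, -0.66 (SE 0.35), or -0.18 without them. Trem2 itself had -0.15 (SE 0.31), Ctsb, cathepsin B, 0.04 (SE 0.10), and Spp1, osteopontin, 0.33 (SE 0.27).

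Further members of that list lay below the filter and could be compared only by their counts. Gpnmb, a glycoprotein of lipid-laden phagocytes, had 47 counts over KO saline and 28 over KO AAV (two-sided exact permutation p = 0.0397 on CPM, unadjusted, n = 5 each). Lgals3, galectin 3, had 15 and 4 counts (exact p = 0.0397), and Cst7, cystatin F, had 13 and 4 (exact p = 0.0476). Itgax, the integrin CD11c, had 2 and 1 counts, too few for a difference to be detectable. Of the 158 list members below the filter that had any count, 14 had an exact permutation p under 0.05, 12 lower and 2 higher, with no adjustment for their number. The same test was not run on the other genes below the filter. These counts therefore have no share over all such genes to be set against, and they say nothing about the lists as such.

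Genes of resting microglia lay closer to the median of all genes. The homeostatic list had 12 of 14 members tested, none passed in edgeR, and the median was -0.09, or -0.00 without KO saline replicates 1 and 3. P2ry12, the ADP receptor of microglial processes, had -0.07 (SE 0.16), Cx3cr1, the fractalkine receptor, -0.05 (SE 0.17), and Csf1r, the receptor that microglia need to survive, 0.11 (SE 0.22). Fcrls, an Fc receptor-like protein, was the 1 member with an unadjusted p under 0.05, at -0.56 (SE 0.22), or -0.37 without those libraries. The summed level of the list was 644 to 838 CPM in KO saline and 625 to 797 CPM in KO AAV, with overlap. Whether the homeostatic and activated lists differ from each other was not tested.

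Markers of other immune cells were close to the limit of detection. None of the 12 neutrophil and monocyte markers passed the count filter, 2 were at 0 in all libraries, and their summed level was 9.09 to 30.4 CPM in KO saline and 2.62 to 9.42 CPM in KO AAV. S100a8, a calcium-binding protein of neutrophils, had 67 counts over KO saline and 27 over KO AAV (two-sided exact permutation p = 0.0873, n = 5 each), and its partner S100a9 had 25 and 8 (exact p = 0.0159). Lyz2 is also made by these cells, and the part of blood cells in its difference was not tested. Of 14 lymphocyte markers 8 were at 0 in every library and 1 was tested, Trbc2, a T cell receptor constant gene, at -0.12 (SE 0.23). The 8 markers of border-associated macrophages summed to 13.1 to 19.8 CPM in KO saline and 11.1 to 17.2 CPM in KO AAV, and Mrc1, their mannose receptor, had -0.62 (SE 0.28).

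All 11 tested genes of the interferon response and antigen presentation list, of 28 members, had a negative difference, where 5188 of all 9905 genes tested had one. The list median was -0.29, and none passed in edgeR. The number with a negative difference was 10 of 11 with library totals alone and with upper quartile scaling, and 8 of 11 without KO saline replicates 1 and 3. The summed level of the list was 336 to 412 CPM in KO saline and 288 to 306 CPM in KO AAV, without overlap after TMM scaling. With library totals alone KO saline replicate 1 fell within the treated range. B2m, the light chain of MHC class I, had 136, 196, 175, 170.4 and 212 CPM in KO saline replicates 1 to 5, against 142, 155, 152, 128 and 154 CPM in KO AAV replicates 1 to 5. KO saline replicate 1 overlapped the treated libraries, and the log2 difference was -0.29 (SE 0.13), or -0.40 without KO saline replicates 1 and 3. Tapbp, which helps load peptides on MHC class I, had -0.63 (SE 0.28), or -0.25 without them. Lgals3bp, an interferon-induced secreted glycoprotein, had -0.83 (SE 0.33), and Irf9, a factor of interferon signalling, -0.55 (SE 0.31), or -0.13 without them. Of the classical interferon targets, Ifit2 and Ifit3 had -0.07 and -0.02 (SE 0.32 each). Ifit1, below the filter, had 30 counts after saline and 20 after AAV, at 4.03 ± 1.21 and 2.22 ± 0.558 CPM (SD, n = 5 each, exact permutation p = 0.00794, unadjusted). Its counts per library overlapped between the groups before scaling. Also below the filter, Rtp4 had 51 and 35 counts (exact permutation p = 0.0238) and Psmb9, a subunit of the immunoproteasome, 17 and 7 (exact p = 0.0397).

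Lysosomal hydrolases and their activators, the enzymes of the compartment that progranulin serves, were tested in 37 of 43 members. None passed in edgeR, and the median was -0.10. In edgeR 4 had an unadjusted p under 0.05, all lower, where 1.72% of all genes tested were lower at that threshold. A negative difference was found in 27, where 5188 of all 9905 genes tested had one. The number was 23 with library totals alone, 25 with upper quartile scaling and 22 without KO saline replicates 1 and 3. After Ctss, the members of lowest p were Man2b1, a mannosidase, at -0.55 (SE 0.21), Ctsz, and Npc2, the luminal cholesterol carrier, at -0.33 (SE 0.15), or -0.10 without KO saline replicates 1 and 3. Man2b1 had 24.8, 19.6, 19, 25 and 23.6 CPM in KO saline replicates 1 to 5, against 10.5, 11.1, 17.3, 16.1 and 22.1 CPM in KO AAV replicates 1 to 5. KO AAV replicate 5 overlapped the saline range. Ctsd, cathepsin D, had -0.26 (SE 0.13), Hexa, a subunit of hexosaminidase, -0.32 (SE 0.18), and Tpp1, a tripeptidyl peptidase, -0.20 (SE 0.12). Lipa, the lysosomal acid lipase, had 0.45 (SE 0.24), and Smpd1, acid sphingomyelinase, 0.29 (SE 0.15). Rnaset2a, a lysosomal ribonuclease gene (ENSMUSG00000095687, chr17:8115445-8148097, minus strand), was in no list and had 14.4, 11.6, 19, 6.25 and 10.9 CPM in KO saline replicates 1 to 5, against 3.15, 4.43, 6.83, 7.23 and 6.76 CPM in KO AAV replicates 1 to 5. Its log2 difference was -1.09 (SE 0.31), and reads of its close copy Rnaset2b may have been split from it in counting.

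The lysosomal membrane and acidification list had 26 of 29 members tested, none past adjustment in edgeR, and a median of -0.06 that came to 0.00 with library totals alone and -0.02 without KO saline replicates 1 and 3. Lamp1 and Lamp2, the main membrane glycoproteins, had -0.07 (SE 0.11) and -0.20 (SE 0.14). Among progranulin's partners and genes of frontotemporal dementia, 15 of 18 were tested, none passed in edgeR, and the median was -0.07, or 0.05 without KO saline replicates 1 and 3. The receptor gene Sort1 had -0.01 (SE 0.13) and Psap, which encodes prosaposin, -0.07 (SE 0.15). Tmem106b, a lysosomal membrane protein and risk gene, had 0.20 (SE 0.13), or 0.05 without those libraries. Sqstm1, the autophagy receptor p62, was the 1 member with an unadjusted p under 0.05, at -0.30 (SE 0.13). Its 2 highest levels were those of KO saline replicates 1 and 3, and without them the difference was -0.06.

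Tfrc, the transferrin receptor to which the 8D3 fragment binds (ENSMUSG00000022797, chr16:32608920-32632794, plus strand), had the lowest p of all genes that were higher in KO AAV. Its level was 95.9, 68.3, 83.6, 79.5 and 66.6 CPM in KO saline replicates 1 to 5, against 147, 116, 105, 122 and 104 CPM in KO AAV replicates 1 to 5. Every treated library lay above every saline library. The means were 78.8 ± 12 CPM after saline and 119 ± 17.3 CPM after AAV (SD, n = 5 each), a 1.51-fold difference, with a log2 value of 0.60 (SE 0.14), a 95% interval of 0.31 to 0.89 and an unadjusted p of 4.40e-04. It did not pass in edgeR (adjusted p = 1.00), and without KO saline replicates 1 and 3 the log2 difference was 0.74 with an edgeR adjusted p of 0.0697. The iron handling list, with 11 of 18 members tested, Tfrc included, had a median of 0.04 that turned to -0.03 without KO AAV replicate 2. Slc39a14, a zinc and iron importer, had 0.70 (SE 0.34), or 0.36 without KO saline replicates 1 and 3, and the iron exporter Slc40a1 had -0.41 (SE 0.27). The ferritin heavy chain gene Fth1 had 0.01 (SE 0.13), and Slc11a2, the endosomal iron transporter, -0.09 (SE 0.21).

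Vessel markers, which include the cells that carry the receptor into brain, had a median of 0.07 over 14 tested genes of 22, or 0.16 without KO saline replicates 1 and 3, with none past adjustment in edgeR. Of the 14, 11 had a positive difference and 3 a negative one, where 47.6% of all genes tested were above 0. Cldn5, the tight junction protein of brain endothelium, had 0.29 (SE 0.27), Flt1 0.10 (SE 0.12) and Pdgfrb, a pericyte receptor, 0.37 (SE 0.28). Ly6a, among the 3 lower, ran from -0.56 to -0.12 over 27 other settings. The summed level was 853 to 979 CPM in KO saline and 823 to 1003 CPM in KO AAV, with overlap. Haemoglobin genes of red cells varied by animal: Hbb-bs had 232, 203, 471, 27.3 and 109 CPM in KO saline replicates 1 to 5, against 304, 260.4, 383, 106 and 221 CPM in KO AAV replicates 1 to 5. The 5 tested erythrocyte genes had a median of 0.25, which was -0.00 without KO AAV replicate 3 and 1.24 without KO saline replicates 1 and 3. Tfrc is also a gene of immature red cells, and the part of blood in its difference was not tested.

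Oligodendrocyte and myelin genes had a median of 0.11 over 19 tested members of 19, with 16 differences above 0, where 47.6% of all genes tested were above 0. None had an unadjusted p under 0.05 in edgeR. Mog, a protein of the outer myelin surface, had 0.26 (SE 0.21), and Mbp, myelin basic protein, 0.01 (SE 0.16). The median was 0.05 without KO AAV replicate 3 and 0.19 without KO saline replicates 1 and 3. Among precursor genes 10 of 16 were tested, with a median of 0.06 that turned to -0.01 without KO saline replicates 1 and 3. Olig1, a factor of the oligodendrocyte lineage, had 152, 211, 144, 204 and 224 CPM in KO saline replicates 1 to 5, against 262, 233, 242, 217 and 221 CPM in KO AAV replicates 1 to 5. KO saline replicates 1 and 3 were the lowest libraries, the groups overlapped, and the log2 difference of 0.33 (SE 0.13) was 0.14 without them. Vcan, the proteoglycan versican, had 0.51 (SE 0.24).

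Neuronal lists lay near the median of all genes. Synaptic vesicle and postsynaptic density genes, tested in all 32 members, had a median of -0.04 that was 0.01 with library totals alone and -0.00 without KO saline replicates 1 and 3, and none passed in edgeR. Grin1, the obligate subunit of NMDA receptors, had 63.3 ± 9.33 CPM after saline and 50.0 ± 3.65 CPM after AAV (SD, n = 5 each) and a log2 difference of -0.34 (SE 0.14), or -0.20 without those libraries. Nptx1, a secreted pentraxin of excitatory synapses, had -0.36 (SE 0.15). Syt1, the calcium sensor of release, had 0.07 (SE 0.10) and Gria1, an AMPA receptor subunit, 0.01 (SE 0.11). Markers of cortical layers had a median of -0.06, which was 0.00 without KO saline replicate 2 and -0.10 without KO saline replicates 1 and 3. Slc17a7, the vesicular glutamate transporter, had -0.25 (SE 0.14), or -0.10 without the same pair, which held its 2 highest levels. Interneuron markers had a median of -0.02 that was 0.04 with library totals alone and 0.02 without that pair, with 0.02 (SE 0.11) for Sst and -0.11 (SE 0.17) for Pvalb. Neurofilament genes had a median of -0.00, or 0.06 with library totals alone and 0.03 without that pair, and Nefl, the light chain, had -0.00 (SE 0.10).

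Striatal markers set 1 library apart. As a list, striatal neuron markers had a median of 0.12 over 14 tested genes, -0.22 without KO AAV replicate 3 and 0.26 without KO saline replicates 1 and 3. Penk, which encodes enkephalins, had 296, 131, 243, 221 and 176 CPM in KO saline replicates 1 to 5, against 131, 166, 525, 278 and 178 CPM in KO AAV replicates 1 to 5. KO AAV replicate 3 was the highest of all 10 libraries by a wide margin. The log2 difference of Penk was 0.26 (SE 0.30), or -0.17 without that library, and that of Adcy5, an adenylyl cyclase of striatal neurons, was 0.15 (SE 0.18), or -0.02. Thalamus and hippocampus markers had a median of -0.006 over 9 tested genes, or 0.008 without KO saline replicates 1 and 3. The sign of that median changed in 12 of the settings run. Immediate early genes, which follow neuronal activity, had a median of 0.09 over 21 tested genes, -0.05 without KO AAV replicate 2 and 0.06 without KO saline replicates 1 and 3, with Egr1 at 0.22 (SE 0.14) and Fos at 0.10 (SE 0.48).

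Mitochondrially encoded genes had a median of -0.27 over 8 tested genes of 13, with 4 lower at an unadjusted p under 0.05 and none past adjustment in edgeR. Of all genes tested, 1.72% were lower at that unadjusted threshold. mt-Nd4, a subunit of complex I, had 72725, 32689, 41806, 40886 and 36959.5 CPM in KO saline replicates 1 to 5, against 26218, 32136, 38851, 37254 and 35031 CPM in KO AAV replicates 1 to 5. KO saline replicate 1 stood far above the rest, and the log2 difference of -0.41 (SE 0.19) was -0.12 without KO saline replicates 1 and 3. The list median without them was -0.13. Nuclear genes of oxidative phosphorylation, with 76 of 83 tested, had a median of 0.03, or -0.02 without KO AAV replicate 3 and 0.09 without KO saline replicates 1 and 3. Cytosolic ribosomal protein genes, with 65 of 82 tested, had a median of -0.02, or 0.05 with library totals alone and 0.02 without those libraries. Rpl15 had 60.7, 79.9, 54, 79.5 and 84.8 CPM in KO saline replicates 1 to 5, against 94.4, 94.2, 89.3, 89 and 92.2 CPM in KO AAV replicates 1 to 5, without overlap and with 0.35 (SE 0.14), or 0.18 without KO saline replicates 1 and 3, its 2 lowest libraries. Cholesterol synthesis genes had a median of -0.04, or 0.02 with library totals alone and 0.04 without that pair. Mvd, which makes isopentenyl diphosphate, had the lowest p of that list at 25.8 ± 3.76 CPM after saline and 18.6 ± 1.22 CPM after AAV (SD, n = 5 each), without overlap, and -0.47 (SE 0.16). Heat shock and endoplasmic reticulum stress genes had a median of 0.07, or -0.03 without KO saline replicate 4, and Hspa5, the chaperone BiP, had 0.07 (SE 0.15).

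**Figure D5:**
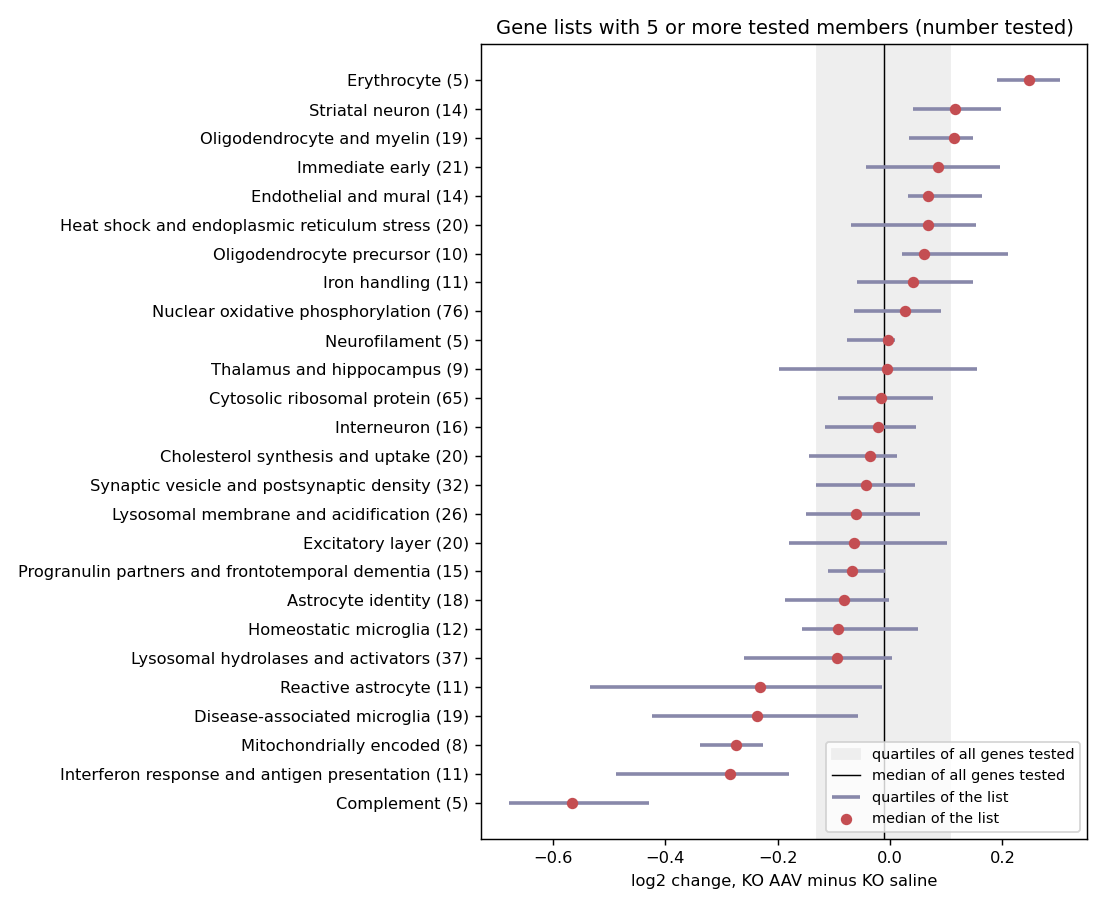
Median (point) and quartiles (line) of the log2 differences, KO AAV minus KO saline (x axis), of the tested members of 26 gene lists (y axis, number tested in brackets). The grey band spans the quartiles of all 9905 genes and the black line their median of -0.01. Complement lies lowest at -0.57, 4 further lists have medians from -0.29 to -0.23, and the erythrocyte list lies highest at 0.25.

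Outside the lists, further genes with low p are given as measured, and none passed in edgeR. Adra1b, the alpha-1B adrenergic receptor (ENSMUSG00000050541, chr11:43774606-43901210, minus strand), had 68.7, 56.7, 62.3, 49.4 and 40.6 CPM in KO saline replicates 1 to 5, against 36.2, 47.1, 33.6, 32.8 and 30.7 CPM in KO AAV replicates 1 to 5. KO AAV replicate 2 alone lay above the lowest saline library, and the log2 difference was -0.61 (SE 0.17). Il17rd, a membrane inhibitor of fibroblast growth factor signalling (ENSMUSG00000040717, chr14:27038941-27107286, plus strand), had 10.4, 7.99, 9.88, 10.8 and 9.69 CPM in KO saline replicates 1 to 5, against 4.19, 6.09, 5.25, 5.56 and 6.76 CPM in KO AAV replicates 1 to 5, without overlap and with -0.81 (SE 0.23). Fabp3, a fatty acid binding protein, had 58.4 ± 11.8 CPM after saline and 41 ± 2.49 CPM after AAV (SD, n = 5 each), without overlap and with -0.50 (SE 0.15), or -0.29 without KO saline replicates 1 and 3. Man1c1, a mannosidase of the Golgi, had -0.55 (SE 0.17).

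In the higher direction, Cacng5, an auxiliary subunit of AMPA receptors (ENSMUSG00000040373, chr11:107874605-107915055, minus strand), had 5.59, 5.08, 5.32, 5.68 and 6.06 CPM in KO saline replicates 1 to 5, against 7.87, 16.1, 14.2, 7.23 and 14.1 CPM in KO AAV replicates 1 to 5. The groups did not overlap, the saline values were tightly grouped, and the treated ones spread over a wider range. Its log2 difference of 1.08 (SE 0.28) was the largest in that direction, at a low level. Fam228b had 25.6 ± 2.54 CPM after saline and 35.1 ± 3.27 CPM after AAV (SD, n = 5 each), without overlap, and 0.45 (SE 0.15). Nmral1, an NADPH sensor, had 0.89 (SE 0.29), Gabpb2, a subunit of the factor GABP, 0.88 (SE 0.31), Fam98a 0.90 (SE 0.32) and Surf6, a nucleolar protein, 0.85 (SE 0.30). Each of these 4 had a mean below 12 CPM in both groups. Rngtt, the messenger RNA capping enzyme, had 0.55 (SE 0.20), Stk16, a Golgi kinase, 0.42 (SE 0.15) and ENSMUSG00000109162, a gene with a clone name, 0.89 (SE 0.28).

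The count filter bore on which genes were called. With filterByExpr or a mean CPM of at least 5 in its place, Clec7a passed in edgeR beside Gfap. With no count filter, Clec7a, Lyz2 and Xist passed beside it. Of the tested genes 7976 had 10 or more counts in all 10 libraries and 279 in exactly 5, while 254 genes with exactly 4 fell just outside. Just outside stood Clec7a, S100a8, the chemokine gene Ccl6 with 42 and 43 counts in KO saline and KO AAV, and the ferroxidase gene Heph with 38 and 69. Just inside stood Cd68 with 51 and 40, Mrc1 with 54 and 43, Cd52 with 45 and 43, and Rps29 with 30 and 69. Rps29, Slc39a8, RP23-207N15.3 and RP23-41J14.5 passed through the KO AAV libraries alone, and no gene passed through the KO saline libraries alone.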

How the data were processed

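RNA from cortex powder of perfused mice was made into QuantSeq 3' libraries, which count 1 tag near the 3' end of each transcript, with molecular identifiers for removing PCR duplicates, per the labels' protocols. Per the submitters' processing notes STAR, FastQC 0.11.5, MultiQC 1.0, edgeR 3.40.2 and R 4.2 were used on build GRCm38.p6. No source used here names the counting program, its strand setting or the annotation, so reads of overlapping, antisense or near-identical genes may be shared between them. The authors deposited raw counts per gene. All 27884 values of 100 or more in the 10 libraries (16.8% of nonzero values, 82.5% of counts) carry 2 significant digits. Deposited beside them were a signal per gene (counts scaled to depth, CPM), library sizes, a normalization factor per library (a ratio applied to library size) and the RNA integrity number, a quality score, per the file headers.

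Counts were tested with edgeR 4.0.16 (R 4.3.3, limma 3.58.1 and version 1.17.8 of the data.table package) as a quasi-likelihood fit of the 10 libraries after TMM scaling, with Benjamini-Hochberg adjustment over all 9905 genes and a threshold of 0.05. CPM printed here divide counts by totals after TMM scaling, SD are over animals, and SE belong to the fitted log2 difference. The common biological coefficient of variation was 0.171. For genes below the filter and for library measures, exact permutation tests (two-sided) were used. Alternatives covered scaling, filters, DESeq2 1.42.0, limma, covariates, thinning and left-out libraries. Positions are from GENCODE M21, in which 53706 identifiers matched without version. Named genes are Grn, genes past the threshold, the 10 of lowest p per direction, the 3 of lowest p in each list, a few fixed genes and list members beside the filter; others were chosen after their values were seen. Several genes are not reported here. The members, the 30 lists (677 genes, 502 tested) and the tests were chosen with earlier results of these data known, so lists carry counts and medians and no test. Nothing says that same-numbered animals are related. Intervals cover the spread between animals, and counts near 0 carry counting error besides.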

Additional observations from a re-analysis of the deposited data

Results flagged for a closer look

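In 242 groups of 5 values (genes, list scores and library measures), 17 held a library whose gap to its nearest neighbour exceeded Dixon's critical share of the group's range for 5 values, and chance alone would do so in about 1 of 20 groups. A list score is the median over tested members of log2 CPM relative to the mean of the 10 libraries.

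KO AAV replicate 3 was the library set apart most often in the treated group. It held the highest Mog, 43.58 CPM against 20.9 to 27.15 in the other treated libraries, the highest Ctss, 262.5 against 227.2 to 236, and the lowest Cck, 383.3 against 611.6 to 664.9. Its score for immediate early genes was -0.5622 against 0.04892 to 0.2151, and for nuclear oxidative phosphorylation 0.1606 against -0.06253 to -0.002148.

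KO saline replicate 3 had the highest Cck, 988.1 CPM against 545.3 to 671.3, and the highest Gjb6, 83.61 against 63.92 to 68.73. Its score was 0.152 for oligodendrocyte and myelin genes, against -0.1353 to -0.0669, and 0.1788 for neurofilament genes, against -0.1035 to -0.04641. KO saline replicate 1 had the highest mt-Nd4, 72720 CPM against 32690 to 41810, and a mitochondrially encoded score of 0.5429 against -0.05251 to 0.1167. In KO saline replicate 4 the RNA integrity number was 8 against 9.2 to 9.6, and Glul was the lowest, 2726 CPM against 2906 to 2969. KO saline replicate 2 had the highest Olig2, 29.78 CPM against 18.78 to 21.01.

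In the other treated libraries, Glul stood out in KO AAV replicate 2 at 2715 CPM, against 2280 to 2397. KO AAV replicate 1 was low for mt-Nd2, 13630 CPM against 18280 to 19670, and for Nefh, 24.12 against 32.55 to 35.65. Gfap, Vim, Clec7a and Tfrc had no such library in either group.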

How the results depend on the processing

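The count of genes past adjustment was 1 (Gfap) as reported and under 16 of 27 other settings, and 0 to 4 overall. It was 2 with DESeq2 (Ctss and Gfap), 2 with filterByExpr and 2 with a mean CPM of at least 5 (Clec7a and Gfap each time), and 4 with no count filter, where Clec7a, Gfap and Lyz2 were lower and Xist higher. The groups differ in their number of females. It was 0 with the males alone, where Gfap had a log2 difference of -1.26 and an edgeR adjusted p of 0.934, and 1 with sex as a term, where Gfap had -1.21 and an edgeR adjusted p of 0.0454. It was 0 to 1 with each library left out in turn. Same-numbered libraries did not deviate together (correlations from -0.279 to 0.287). With the replicate block the count was 0, and Gfap had -1.20 with an edgeR adjusted p of 0.210. Clec7a held its sign in 26 settings, and its log2 ratio ran from -3.52 to -2.77 with each library left out. It missed the threshold with filterByExpr and limma on log2(CPM + 0.25), at -3.17 (limma adjusted p = 0.166), and with filterByExpr and the replicate block, at -3.01 (edgeR adjusted p = 0.124).

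Over 90 named genes, 2403 of 2421 values kept direction and side of the threshold. Ctss passed in DESeq2 (adjusted p = 0.00836) and Lyz2 with no count filter (edgeR adjusted p = 0.00339). No gene that reversed had passed. Without KO AAV replicate 3, the values were -0.17 for Penk, -0.023 for Adcy5, -0.0023 for Bpgm and 0.012 for Trbc2. With single libraries left out, the ranges were -0.17 to 0.44 for Penk, -0.023 to 0.26 for Adcy5, -0.0023 to 0.15 for Bpgm, -0.27 to 0.012 for Trbc2, -0.47 to 0.081 for Foxj1 (without KO saline replicate 4) and -0.19 to 0.011 for Ina (without KO saline replicate 3). Leaving out KO saline replicates 1 and 3, a setting added after the data were seen, gave -0.026 for Hsp90b1, 0.16 for Trbc2 and 0.034 for Stmn2. The causes were not tested.

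The medians of the complement, disease-associated microglia, interferon, reactive astrocyte and mitochondrially encoded lists kept their sign in every setting run. So did those of the homeostatic microglia, lysosomal hydrolase, astrocyte identity, oligodendrocyte and myelin, and endothelial and mural lists. Complement was -0.24 with no count filter. The median of all genes ran from -0.01 to 0.05 over the scalings, so list medians within that distance of 0 have no settled sign. Genes of low count limit the rest: Clec7a, Gpnmb, Lgals3, Cst7, Cd109 and Ifit1 rest on a few counts per library.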

Other observations

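Several genes without overlap between the groups lie in no list and were chosen after their values were seen. None passed in edgeR. Igfbp5, an insulin-like growth factor binding protein, had 210.6 ± 8.22 CPM after saline and 167.6 ± 20.2 CPM after AAV (SD, n = 5 each), a log2 difference of -0.33 (SE 0.11). Kcnc2, a potassium channel of fast-spiking neurons, had -0.31 (SE 0.12), or -0.19 without KO saline replicates 1 and 3, and Kif26a, a kinesin-like protein, -0.62 (SE 0.20). Ybx3, an RNA-binding protein, had -0.54 (SE 0.18). In the higher direction, Wdr41, a partner of C9orf72, had 5.38 ± 1.85 CPM after saline and 8.53 ± 1.10 CPM after AAV (SD, n = 5 each), with 0.64 (SE 0.28). Slc13a5, a citrate transporter, had 0.77 (SE 0.32), Ext1, an enzyme of heparan sulfate synthesis, 0.38 (SE 0.16), and Gcc2, a golgin, 0.28 (SE 0.11).

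Stat3, the transcription factor activated in reactive astrocytes, was not in a list and overlapped between the groups. It had 55.8 ± 5.86 CPM after saline and 42.3 ± 4.67 CPM after AAV (SD, n = 5 each), with a log2 difference of -0.40 (SE 0.14) that did not pass in edgeR (adjusted p = 1.00).

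Gfap and Grn lie on the same chromosome, 11, where 25 of 764 tested genes (3.27%) had an unadjusted p under 0.05, against 2.54% of all genes. Chromosomes 16, 2, 17 and 3 had higher shares, at 3.75%, 3.68%, 3.65% and 3.61%, and the other autosomes and X had lower ones. All 10 libraries carry the label Grn KO.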
